A study of Homo sapiens with 4 samples.

Results

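The genes described here are 59 human genes of the NRF2 pathway and of glutathione and redox metabolism, chosen by name from the 38137 genes counted in A549 tumors. A549 is a human non-small cell lung cancer (NSCLC) line, grown here as flank xenografts in male BALB/c athymic nude mice of a few weeks of age, which lack T cells but keep other host cells. The study asked whether aerobic exercise changes the response of such tumors to radiation therapy. RNA was sequenced from 4 groups, with 1 library for each. In the combination group, mice ran on a treadmill and the tumor was then irradiated with X-rays on the same day. The radiation group received the irradiation alone, the exercise group ran alone, and the control group received neither. All groups carried the same cell line, so any alteration of KEAP1 or NRF2 in A549 is shared by the 4 libraries. The number of tumors behind each library is not given in the sources used here.

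Values are reads assigned to each gene and CPM (reads of the gene per 1e6 library reads) after TMM scaling, a method that corrects for library size and composition. Total reads ranged from 33432637 to 35408705 and TMM factors from 0.980 to 1.03. Of the 59 genes, 53 had a mean of at least 20 reads over the 4 libraries and were compared, as were 19393 of all genes. No group had a replicate library, so ratios between 2 libraries carry no p-value, and their 95% intervals (exact, Clopper-Pearson) cover counting error only. Reads carried no molecular identifiers. Fewer cells of a type and less RNA per cell cannot be told apart in such bulk tumors, nor can reads of the mouse host that match a human gene. A549 keratins were abundant in every library, with 36916 to 42547 reads of KRT18, and CDKN2A, which is deleted in A549, had 0 or 1 read. Of the alveolar markers, ABCA3 had 4455 to 5354 reads, while SFTPA1, SFTPB, SFTPC and NKX2-1 had 0 to 5. The counts covered whole gene spans, introns included, and 14 members overlap another counted gene.

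NRF2, the product of NFE2L2, is a transcription factor that pairs with small MAF proteins on antioxidant response elements and switches on genes for glutathione synthesis, the thioredoxin system and detoxification. KEAP1 holds NRF2 in the cytoplasm and marks it for degradation until oxidants modify KEAP1, and BACH1 competes for the same DNA elements. A549 cells carry mutant KEAP1, so NRF2 is active in them without added stress. Glutathione peroxidases, peroxiredoxins and catalase remove peroxides, superoxide dismutases remove superoxide, and NADPH oxidases (NOX and DUOX proteins) produce both.

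Start-site sequences are shown for genes with the core of the antioxidant response element and for the gene pair that differed together between irradiated and unirradiated tumors. Each runs from 250 bases before to 50 bases after a RefSeq transcription start (GRCh38.p14), 5′ to 3′ on the strand of the gene. The core TGACNNNGC was searched on both strands, and capitals mark each match. It was present in 12 of 49 members with a sequence (24.5%), against 16.1% of 27305 genes. The 12 were KEAP1, ME1, PIR, GCLM, TXNRD1, GPX2, GSTA4, GSTM1, GSTM5, GSTO1, GSTP1 and MGST1. Sequences were not used for SOD1, SLC7A11, HMOX1, GSS, ABCC3, ABCC1, PRDX6, MGST2, GSR and PRDX1. A match of these letters describes the window only. The examples are GCLM (chr1:93909381-93909680, minus strand), which helps to make glutathione, ME1 (chr6:83431002-83431301, minus strand), which makes NADPH, GPX2 (chr14:64942696-64942995, minus strand), a peroxidase, and GSTP1 (chr11:67583562-67583861, plus strand), a glutathione transferase.
GCLM: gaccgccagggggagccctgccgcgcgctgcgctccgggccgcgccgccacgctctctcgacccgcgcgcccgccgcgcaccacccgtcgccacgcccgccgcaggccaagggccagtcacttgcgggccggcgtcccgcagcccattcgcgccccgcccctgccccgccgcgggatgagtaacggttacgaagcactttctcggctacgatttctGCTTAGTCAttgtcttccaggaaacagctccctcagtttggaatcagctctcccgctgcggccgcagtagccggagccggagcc
ME1: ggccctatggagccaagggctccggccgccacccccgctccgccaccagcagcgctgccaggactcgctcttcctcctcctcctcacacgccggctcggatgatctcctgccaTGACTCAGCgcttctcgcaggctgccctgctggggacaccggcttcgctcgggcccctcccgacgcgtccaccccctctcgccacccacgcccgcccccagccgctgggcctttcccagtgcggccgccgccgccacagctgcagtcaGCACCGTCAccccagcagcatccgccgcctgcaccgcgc
GPX2: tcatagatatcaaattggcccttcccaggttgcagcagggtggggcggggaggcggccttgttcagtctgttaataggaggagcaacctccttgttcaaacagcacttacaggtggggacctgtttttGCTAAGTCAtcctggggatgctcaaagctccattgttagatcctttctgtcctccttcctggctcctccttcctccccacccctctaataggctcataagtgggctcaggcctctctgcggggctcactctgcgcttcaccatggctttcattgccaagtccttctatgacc
GSTP1: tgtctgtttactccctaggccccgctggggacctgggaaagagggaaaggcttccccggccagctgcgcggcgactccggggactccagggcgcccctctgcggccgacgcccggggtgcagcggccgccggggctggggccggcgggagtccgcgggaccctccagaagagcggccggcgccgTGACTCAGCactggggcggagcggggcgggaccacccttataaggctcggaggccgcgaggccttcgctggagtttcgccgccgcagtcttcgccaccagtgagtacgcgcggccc

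The windows of GSTA1 (chr6:52803767-52804066, minus strand) and GSTA2 (chr6:52763426-52763725, minus strand) held no match to the core. They were identical at 288 of 300 bases (96.0%), and capitals mark the 12 bases that differ.
GSTA1: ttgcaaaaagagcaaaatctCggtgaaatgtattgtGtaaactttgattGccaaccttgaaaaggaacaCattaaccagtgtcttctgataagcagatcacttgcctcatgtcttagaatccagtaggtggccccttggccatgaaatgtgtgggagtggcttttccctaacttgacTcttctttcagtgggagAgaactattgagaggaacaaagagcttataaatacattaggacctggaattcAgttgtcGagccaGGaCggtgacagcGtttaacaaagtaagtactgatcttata
GSTA2: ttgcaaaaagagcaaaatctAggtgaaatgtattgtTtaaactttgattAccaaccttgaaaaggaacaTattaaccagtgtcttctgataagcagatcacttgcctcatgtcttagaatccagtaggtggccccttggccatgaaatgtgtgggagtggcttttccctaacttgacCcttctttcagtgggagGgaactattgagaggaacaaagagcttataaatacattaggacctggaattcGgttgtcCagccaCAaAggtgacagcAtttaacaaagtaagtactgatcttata

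Across the 4 libraries most of the 53 genes varied little, and the widest ranges were those of oxidases, alpha-class glutathione transferases, PRDX4 and GPX1. The highest and lowest libraries lay within 1.5-fold of each other for 45 of the 53 members, against 73.21% of all genes compared. All genes were not matched to the members for read number, and ratios of genes with few reads are less precise. For 25 of the 53 members the highest and lowest libraries lay within a log2 ratio of 0.32. The median ratio of highest to lowest library was 1.27. DUOX2 spanned 5.33-fold, NOX4 3.34-fold, GSTA2 2.98-fold, GSTA1 2.35-fold and NOX1 2.20-fold. PRDX4, NOX5 and GPX1 followed with 1.85-fold, 1.82-fold and 1.61-fold. The narrowest were MGST2 and TXN, at 1.08-fold and 1.11-fold. The combination library was the highest of the 4 for 25 members, radiation for 5, exercise for 15 and control for 8, against 27.6%, 22.3%, 29.6% and 20.5% of all genes. The lowest was the combination for 15, radiation for 14, exercise for 14 and control for 10, against 30.0%, 23.2%, 26.8% and 19.9% of all genes. Both irradiated libraries lay above both unirradiated ones for 16 members (30.2%), against 26.2% of all genes, and below them for 14 (26.4%), against 27.6%. Both exercised libraries lay above both sedentary ones for 8 members (15.1%), against 11.6%, and below them for 4 (7.55%), against 13.2%.

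**Figure D1:**
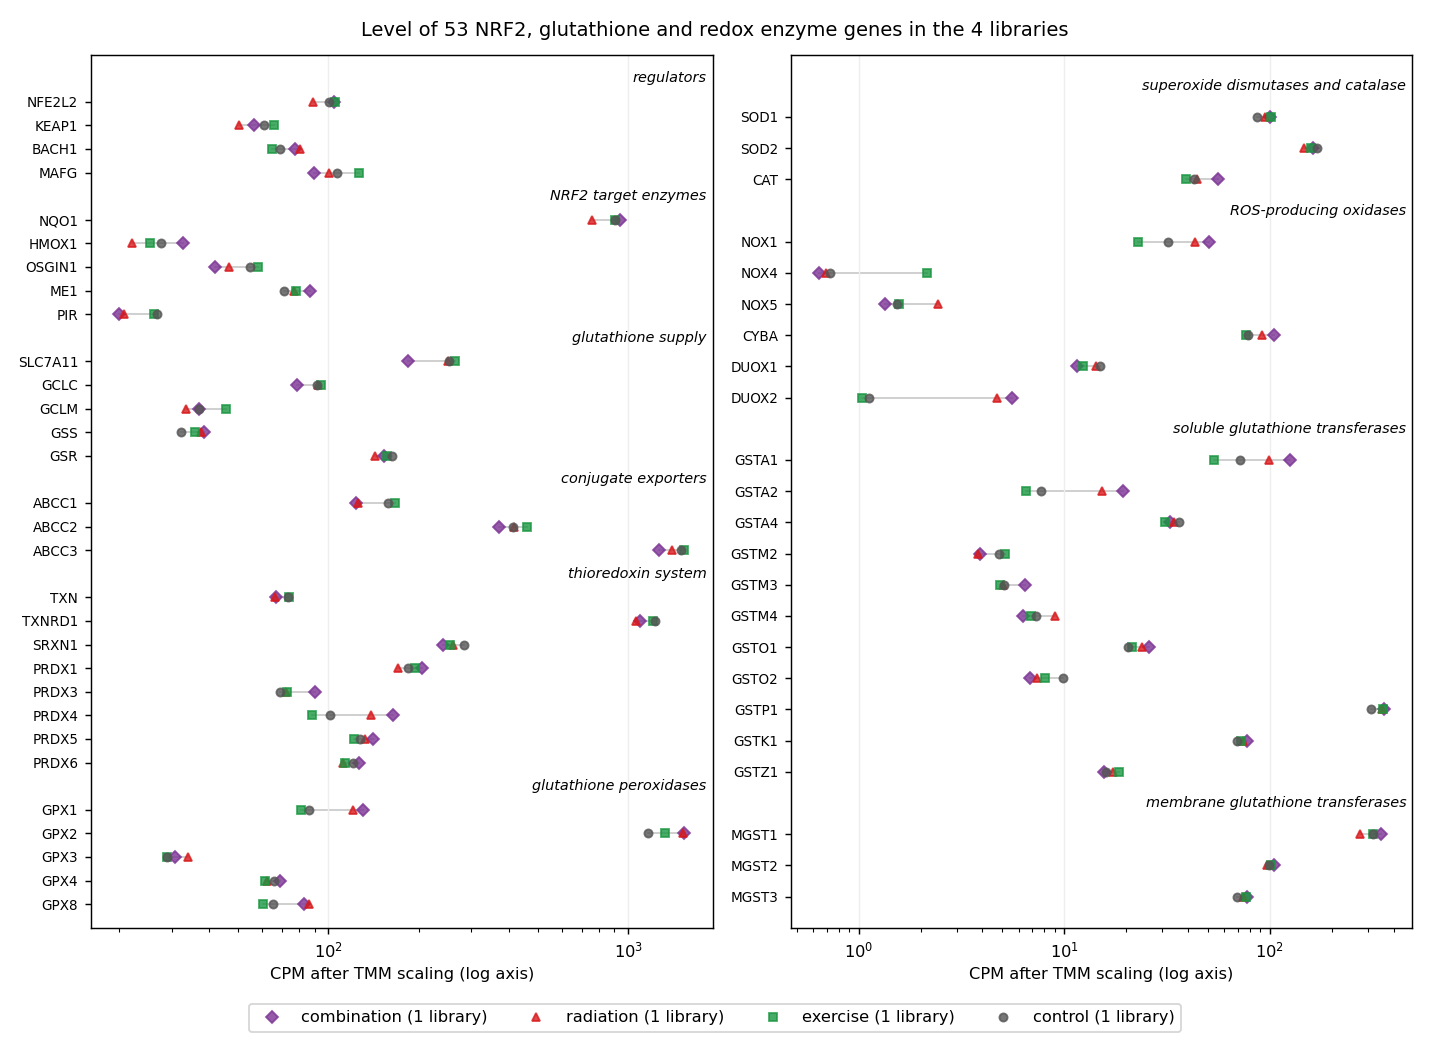
CPM of the 53 compared members, on log axes that differ between the panels, grouped by role, with 1 symbol for each library and a grey line from the lowest to the highest. Most symbols lie close together, while DUOX2 spans 5.33-fold and NOX4 3.34-fold.

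The regulators stayed close to control. NFE2L2 had 3429 reads (105 CPM) in the combination, 3098 (89.1) with radiation alone, 3641 (105) with exercise alone and 3598 (101) in control. KEAP1 had 1847 reads (56.4 CPM) in the combination, 1746 (50.2) with radiation alone, 2267 (65.6) with exercise alone and 2175 (60.9) in control. The radiation library was the lowest of the 4 for both genes. MAFG, a small MAF partner of NRF2, ranged over 1.42-fold, with its lowest level in the combination and its highest with exercise alone. BACH1 had log2 ratios of 0.22 for radiation over control and 0.25 for the combination over exercise. None of the 4 regulators reached 1.5-fold in any of the 5 comparisons.

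Among NRF2 target enzymes, NQO1 and HMOX1 were lowest with radiation alone and highest in the combination. NQO1 had 30694 reads (937 CPM) in the combination, 26308 (756) with radiation alone, 31117 (901) with exercise alone and 32303 (905) in control. NQO1 reduces quinones, and its ratio of the combination over radiation was 1.24-fold (95% interval 1.22 to 1.26). HMOX1 had 1070 reads (32.7 CPM) in the combination, 768 (22.1) with radiation alone, 881 (25.5) with exercise alone and 985 (27.6) in control. HMOX1 breaks down heme and showed the highest ratio of any compared member for the combination over radiation, 1.48-fold (95% interval 1.35 to 1.63). OSGIN1 and PIR, both NRF2 targets, were lower in both irradiated libraries than in both others, as were 27.6% of all genes. OSGIN1 had 42 and 46.8 CPM in the combination and radiation libraries, against 58.3 and 54.9 CPM with exercise alone and in control. ME1 had its lowest level in control, at log2 ratios of 0.29, 0.11 and 0.14 for the combination, radiation and exercise over control.

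The 5 genes of glutathione supply did not share 1 order of libraries, and each stayed within 1.5-fold. SLC7A11 imports cystine, the source of the cysteine in glutathione. SLC7A11 had 6055 reads (185 CPM) in the combination, 8689 (249.8) with radiation alone, 9164 (265) with exercise alone and 9003 (252) in control. The combination was therefore 1.35-fold (95% interval 1.31 to 1.4) lower than radiation and 1.36-fold (95% interval 1.32 to 1.41) lower than control, while the other 3 libraries lay close together. SLC7A11 overlaps the antisense gene SLC7A11-AS1, which had 5103, 6791, 7288 and 7325 reads in the same order of libraries, and reads of the overlap cannot be told apart. GCLC and GCLM form the enzyme that catalyzes the first step of glutathione synthesis. GCLC had 2579 reads (78.7 CPM) in the combination, 3209 (92.3) with radiation alone, 3267 (94.6) with exercise alone and 3277 (91.8) in control. GCLM had 1217 reads (37.2 CPM) in the combination, 1169 (33.6) with radiation alone, 1578 (45.7) with exercise alone and 1327 (37.2) in control. Both were thus highest with exercise alone, but GCLC was lowest in the combination and GCLM with radiation alone. GSS completes the tripeptide and had its lowest level in control. GSR reduces oxidized glutathione. GSR had 5012 reads (153 CPM) in the combination, 4975 (143) with radiation alone, 5413 (157) with exercise alone and 5800 (162) in control.

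The 3 exporters of glutathione conjugates had levels in the combination below those in control. ABCC1 had 123 and 125 CPM in the combination and radiation libraries, against 167 and 158 CPM with exercise alone and in control. Both irradiated libraries thus lay below both others, as they did for 27.6% of all genes. The log2 ratios of the combination over control were −0.35 for ABCC1, −0.16 for ABCC2 and −0.24 for ABCC3. ABCC2 differed little between radiation and control, at 0.01.

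In the thioredoxin system most members were flat and PRDX4 stood apart. TXN had 2194 reads (67 CPM) in the combination, 2313 (66.5) with radiation alone, 2550 (73.8) with exercise alone and 2611 (73.1) in control. TXNRD1 had 35786 reads (1093 CPM) in the combination, 37063 (1066) with radiation alone, 41794 (1209.6) with exercise alone and 43932 (1230.3) in control. Thioredoxin (TXN) and the reductase TXNRD1 that recharges it were lower in both irradiated libraries than in the other 2, by small margins. So were 27.6% of all genes. SRXN1 had 7895 reads (241 CPM) in the combination, 9047 (260.1) with radiation alone, 8765 (254) with exercise alone and 10102 (283) in control. Sulfiredoxin (SRXN1) restores overoxidized peroxiredoxins. Of its 100-base windows, 84.5% also occur in transcripts of another annotated gene, AL121758.1, and any effect on its reads was not tested. PRDX1 had 6723 reads (205 CPM) in the combination, 5933 (171) with radiation alone, 6706 (194) with exercise alone and 6603 (185) in control. PRDX1 is a cytosolic peroxiredoxin and overlaps MMACHC on the opposite strand.

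PRDX4, the peroxiredoxin of the endoplasmic reticulum, was higher in both irradiated libraries. PRDX4 had 5361 reads (164 CPM) in the combination, 4838 (139) with radiation alone, 3052 (88.3) with exercise alone and 3614 (101) in control. The ratio was 1.37-fold (95% interval 1.32 to 1.44) for radiation over control and 1.85-fold (95% interval 1.77 to 1.94) for the combination over exercise. PRDX3, PRDX5 and PRDX6 had log2 ratios between −0.11 and 0.39 in the 3 comparisons with control. PRDX2 had 9, 9, 16 and 10 reads in the combination, radiation, exercise and control libraries and was not compared.

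Glutathione peroxidases had higher summed levels in the irradiated libraries. The sum of the 5 genes was 1842.8 CPM in the combination, 1824 with radiation alone, 1557 with exercise alone and 1411 in control, most of it from GPX2. GPX1, the cytosolic enzyme, was higher in both irradiated libraries. GPX1 had 4284 reads (131 CPM) in the combination, 4199 (121) with radiation alone, 2801 (81.1) with exercise alone and 3086 (86.4) in control. GPX8, a peroxidase of the endoplasmic reticulum, had 83.1 and 86 CPM in the irradiated libraries, against 60.5 and 65.1 CPM with exercise alone and in control. GPX8 lies within CDC20B on the opposite strand, and GPX2 within CHURC1-FNTB. The enclosing genes carried at least as many reads as the members they enclose. GPX4 had 2250 reads (68.7 CPM) in the combination, 2177 (62.6) with radiation alone, 2120 (61.4) with exercise alone and 2355 (66) in control. GPX4, which reduces lipid peroxides, was flat. All 5 peroxidases had a log2 ratio above 0 for the combination over control, but GPX4, at 0.06, lay below 0 when libraries were scaled by total reads.

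Superoxide dismutases and catalase stayed within 1.5-fold. SOD1 had 3283 reads (100.2 CPM) in the combination, 3313 (95.3) with radiation alone, 3500 (101) with exercise alone and 3111 (87.1) in control. SOD2 had 5292 reads (162 CPM) in the combination, 5080 (146) with radiation alone, 5505 (159) with exercise alone and 6042 (169) in control. SOD1 is the cytosolic and SOD2 the mitochondrial enzyme, and SOD2 overlaps WTAP and ACAT2 on the opposite strand. CAT had 1824 reads (55.7 CPM) in the combination, 1535 (44.1) with radiation alone, 1358 (39.3) with exercise alone and 1527 (42.8) in control. Catalase, the peroxisomal enzyme, was highest in the combination, at 1.42-fold (95% interval 1.32 to 1.52) over exercise. SOD3, the secreted enzyme, had 6, 6, 5 and 13 reads in the combination, radiation, exercise and control libraries and was not compared.

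The oxidases that produce reactive oxygen species held the widest differences. DUOX2 (chr15:45092650-45114172, chromosome 15), a dual oxidase that releases hydrogen peroxide at epithelial surfaces, was several-fold higher in both irradiated libraries. DUOX2 had 182 reads (5.56 CPM) in the combination, 163 (4.69) with radiation alone, 36 (1.04) with exercise alone and 40 (1.12) in control. The ratio was 4.18-fold (95% interval 2.95 to 6.07) for radiation over control and 5.33-fold (95% interval 3.71 to 7.85) for the combination over exercise, while exercise over control was 0.93-fold (95% interval 0.576 to 1.5). Its neighbor DUOX1 did not share this pattern. DUOX1 had 11.5, 14.3, 12.3 and 14.9 CPM in the combination, radiation, exercise and control libraries. Both share 4.21% to 4.81% of their 100-base transcript windows with each other, and their start-site windows were 47.3% identical.

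NOX1 (chrX:100843324-100874359) was also higher in both irradiated libraries, and lowest with exercise alone. NOX1 had 1651 reads (50.4 CPM) in the combination, 1503 (43.2) with radiation alone, 791 (22.9) with exercise alone and 1143 (32) in control. It makes superoxide in epithelia, and its log2 ratio was 0.43 for radiation over control, and its ratio was 2.2-fold (95% interval 2.02 to 2.4) for the combination over exercise. CYBA, the p22phox subunit that NOX1 and NOX4 need, had 104, 91.2, 76.5 and 78.4 CPM in the combination, radiation, exercise and control libraries. Both irradiated libraries thus lay above both others, as they did for 26.2% of all genes.

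NOX4 (chr11:89324353-89589557), an oxidase that makes hydrogen peroxide constitutively, stood apart in 1 library. NOX4 had 21 reads (0.641 CPM) in the combination, 24 (0.69) with radiation alone, 74 (2.14) with exercise alone and 26 (0.728) in control. Exercise alone was 2.94-fold (95% interval 1.86 to 4.79) higher than control, and the combination was 3.34-fold (95% interval 2.03 to 5.71) lower than exercise alone. The other 3 libraries lay between 0.641 and 0.728 CPM, so the high value rests on 74 reads of 1 library. NOX5 (chr15:69014695-69062762) stood apart in another. NOX5 had 44 reads (1.34 CPM) in the combination, 85 (2.44) with radiation alone, 54 (1.56) with exercise alone and 55 (1.54) in control. NOX5 is a calcium-regulated oxidase, and the radiation library was above the other 3. CYBB, the phagocyte oxidase subunit, had 18, 12, 22 and 7 reads in the combination, radiation, exercise and control libraries and was not compared.

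**Figure D2:**
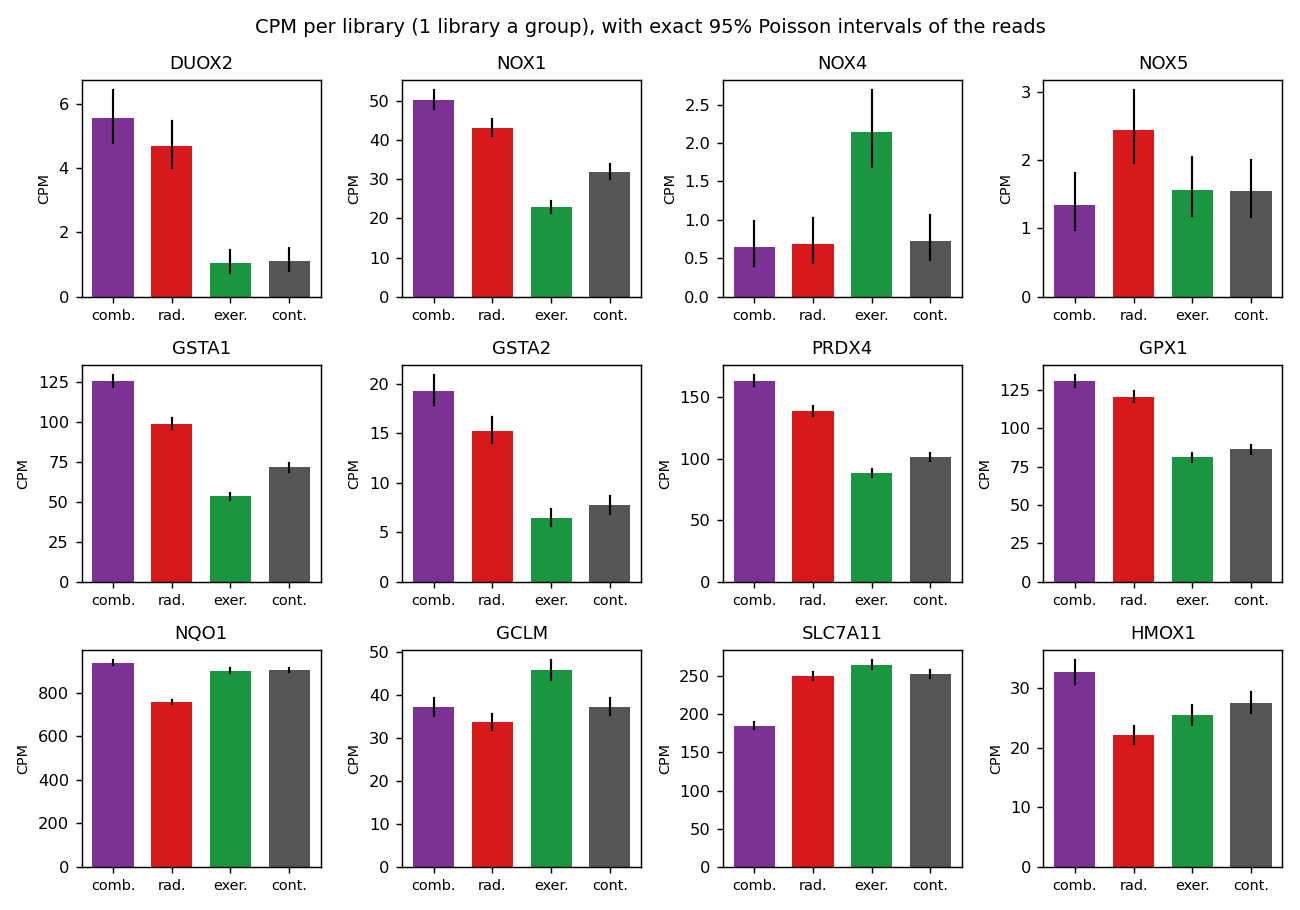
CPM of 12 members, on a linear axis from 0 in each panel, with 1 bar for each library and black lines for the exact 95% Poisson interval of the reads. DUOX2 had 5.56 and 4.69 CPM in the combination and radiation libraries, against 1.04 and 1.12 CPM in the exercise and control libraries, while NQO1 showed no such split.

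Of the soluble glutathione transferases, which couple glutathione to reactive compounds, the alpha pair GSTA1 and GSTA2 differed most. GSTA1 had 4107 reads (125 CPM) in the combination, 3438 (98.9) with radiation alone, 1843 (53.3) with exercise alone and 2554 (71.5) in control. GSTA2 had 633 reads (19.3 CPM) in the combination, 531 (15.3) with radiation alone, 224 (6.48) with exercise alone and 276 (7.73) in control. Both genes (chr6:52791371-52803816 and chr6:52750087-52763475) had the same order of libraries, with the combination highest and exercise lowest. The ratio of GSTA2 was 1.98-fold (95% interval 1.7 to 2.29) for radiation over control, just under 2-fold, and 2.98-fold (95% interval 2.56 to 3.49) for the combination over exercise. For GSTA1 the same ratios were 1.38-fold (95% interval 1.31 to 1.46) and 2.35-fold (95% interval 2.22 to 2.49). The transcripts share 12.0% of the 100-base windows of GSTA1 and 9.06% of those of GSTA2, so part of their reads may be exchanged. GSTA4, at log2 ratios of −0.14 and −0.09 for the combination and radiation over control, did not share the pattern.

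Other transferases differed less. GSTO1 had 849 reads (25.9 CPM) in the combination, 835 (24) with radiation alone, 738 (21.4) with exercise alone and 727 (20.4) in control. GSTO1, an omega-class enzyme, had a ratio of 1.08-fold (95% interval 0.98 to 1.19) for the combination over radiation, an interval that includes 1. Both irradiated libraries were above both others for GSTO1, as for 26.2% of all genes. GSTO2, its paralog, was lowest in the combination and highest in control, with a log2 ratio of −0.55 between them. GSTP1 had 11800 reads (360.3 CPM) in the combination, 12287 (353) with radiation alone, 12292 (356) with exercise alone and 11064 (309.8) in control. GSTP1, the pi-class enzyme, was lowest in control. GSTM5, a mu-class enzyme, had 1, 0, 0 and 0 reads in the combination, radiation, exercise and control libraries, and no ratio was taken because a count of 0 allows up to 3 reads. GSTM1 had 13, 10, 17 and 9 reads and GSTA5 had 5, 0, 0 and 0 in that order, too few to compare. GSTM2, GSTM3, GSTM4, GSTK1 and GSTZ1 had log2 ratios between −0.33 and 0.33 in the 3 comparisons with control. GSTM1 and GSTM2 share 38.0% and 40.7% of their windows with other genes. The membrane transferases MGST1, MGST2 and MGST3 summed to 529, 447, 495 and 485 CPM in the combination, radiation, exercise and control libraries.

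Radiation could be compared in 2 pairs that share no library, radiation over control and the combination over exercise. DUOX2 and GSTA2 were at least 1.5-fold higher in both pairs, 2 of 53 members, against 3.18% of all genes compared. None was at least 1.5-fold lower in both, against 2.28% of all genes. At a looser threshold, a log2 ratio of at least 0.32 in each pair, 7 members were higher in both pairs (PRDX4, GPX1, GPX8, NOX1, DUOX2, GSTA1 and GSTA2), against 7.59% of all genes, and PIR, ABCC1 and GSTM2 were lower, against 6.41%. The sign of the log2 ratio was the same in both pairs for 37 of 53 members (69.8%), against 67.2% of all genes. Across the 53 members the log2 ratios of the pairs had a Pearson r of 0.75, against 0.59 across all genes. This is a description over genes that share libraries within each pair. For radiation over control 50 of the 53 members lay within 1.5-fold, and r without the widest members was not computed.

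**Figure D3:**
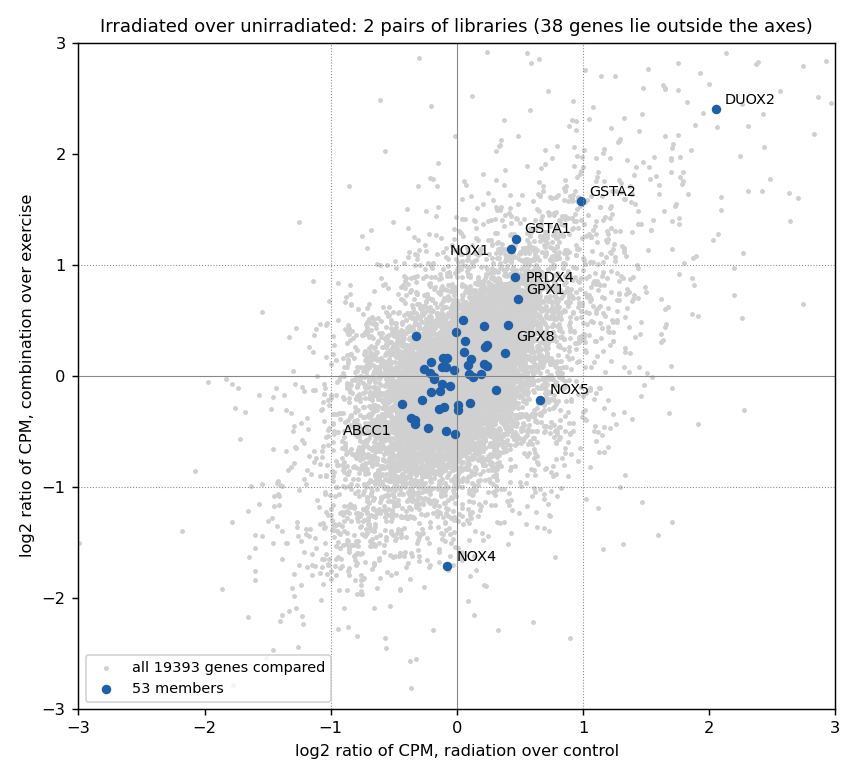
Log2 ratio of CPM for radiation over control (horizontal) and for the combination over exercise (vertical), with members in blue over all 19393 genes in grey, 38 of which lie outside the axes. DUOX2 and GSTA2 lie furthest to the upper right among the members, and NOX4 lies low in the second pair only.

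An additive model of both treatments over the 4 libraries, fitted with edgeR's quasi-likelihood test to all genes compared, leaves 1 residual degree of freedom and assumes that the treatments do not interact. At an adjusted p under 0.05 (Benjamini-Hochberg over all genes), 7 members were higher with radiation, against 5.55% of all genes, and 2 were lower, against 3.75%. The 7 were the same genes as those past a log2 ratio of 0.32 in both pairs. Fitted log2 ratios were 2.23 for DUOX2 (adjusted p = 0.00021), 1.28 for GSTA2 (adjusted p = 0.000681) and 0.85 for GSTA1 (adjusted p = 0.00315). NOX1 had 0.78 (adjusted p = 0.00466) and PRDX4 0.67 (adjusted p = 0.00284). The peroxidases had 0.59 for GPX1 (adjusted p = 0.00275) and 0.43 for GPX8 (adjusted p = 0.0122). The 2 that fell were ABCC1, at −0.38 (adjusted p = 0.0304), and OSGIN1, at −0.35 (adjusted p = 0.0478). None of the 4 regulators and none of the 5 genes of glutathione supply passed. NOX1 and GSTA1 were lower with exercise alone than in control, at log2 ratios of −0.48 and −0.42. Their fitted ratios therefore lean partly on the low exercise library, while the fit assumes no interaction.

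Exercise could likewise be compared in 2 pairs without a shared library, exercise over control and the combination over radiation. None of the members was at least 1.5-fold higher in both pairs, against 0.356% of all genes compared, and none was lower, against 0.547%. The edgeR fit called 0 members higher with exercise, against 0.0567% of all genes, and 0 lower, against 0.0258%. At an unadjusted p under 0.05 in edgeR, 1 member, GCLM, was higher, against 2.5% of all genes, and 0 were lower, against 3.1%. The sign agreed between the pairs for 24 of 53 members (45.3%), against 50.3% of all genes, and Pearson r was −0.17 across members and 0.046 across all genes. Both exercised libraries lay above both others for 8 members (NFE2L2, ME1, PRDX1, PRDX3, SOD1, GSTP1, MGST2 and MGST3), against 11.6% of all genes. They lay below both others for 4 (SRXN1, DUOX1, GSTA4 and GSTM4), against 13.2%.

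**Figure D4:**
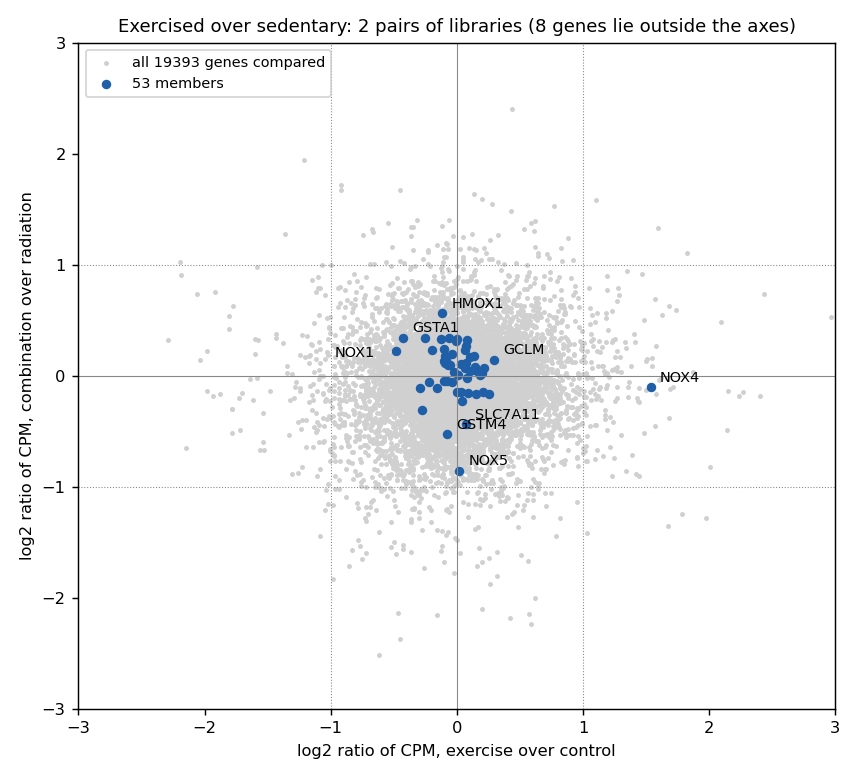
Log2 ratio of CPM for exercise over control (horizontal) and for the combination over radiation (vertical), with members in blue over all 19393 genes in grey, 8 of which lie outside the axes. NOX4 is high in the first pair only and NOX5 low in the second only.

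By single comparison, the counts of members past 2-fold were small. For the combination over control 2 members were at least 2-fold higher (DUOX2 and GSTA2), against 2.27% of all genes, and 0 lower, against 1.77%. For radiation over control DUOX2 was higher, 1 member against 1.89% of all genes, and 0 were lower, against 0.897%. For exercise over control NOX4 was higher, 1 member against 0.83%, and 0 were lower, against 0.701%. The combination over radiation, 2 irradiated tumor groups that differ in exercise, had 0 members higher and 0 lower, against 0.418% and 0.887% of all genes. Between the combination and exercise alone 4 members were higher (DUOX2, GSTA2, GSTA1 and NOX1), against 2.92%, and NOX4 was lower, 1 member against 3.06%. The median log2 ratio of the members was 0.066 for the combination over control, against −0.015 for all genes. For the combination over radiation it was 0.074, against 0.0009, and for the combination over exercise 0.051, against −0.016. The medians were −0.010 for radiation over control and 0.0005 for exercise over control, against 0.0007 and 0.0016 for all genes. With libraries scaled by total reads the members' median for the combination over control was −0.0092, against −0.090 for all genes. Members above 0 numbered 30 of 53 for the combination over control, against 47.8% of all genes, 26 for radiation over control, against 50.1%, and 27 for exercise over control, against 50.4%. They numbered 34 for the combination over radiation, against 50.1%, and 30 for the combination over exercise, against 47.8%.

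A further 79 genes of the same pathways were examined, of which 68 were compared. This list was drawn up with earlier results of these data known, so its shares beside those of all genes are a description only. In the edgeR fit 10 of the 68 were higher with radiation (ALDH3A1, CBR1, GLRX, GGT1, TXNIP, SESN1, SESN2, SESN3, TIGAR and PRODH), against 5.55% of all genes, and 0 were lower, against 3.75%. Only 5 of the 68 (ALDH3A1, SESN1, SESN2, SESN3 and TIGAR) were at least 1.5-fold higher in both radiation pairs, against 3.18% of all genes. SESN1, SESN2 and TIGAR are known targets of p53 that limit reactive oxygen species. SESN1 had 956 reads (29.2 CPM) in the combination, 902 (25.9) with radiation alone, 319 (9.23) with exercise alone and 375 (10.5) in control. TIGAR had 2183 reads (66.7 CPM) in the combination, 1963 (56.4) with radiation alone, 952 (27.6) with exercise alone and 976 (27.3) in control. ALDH3A1, an aldehyde dehydrogenase, had a log2 ratio of 1.28 for radiation over control and 0.69 for the combination over exercise. TXNIP binds and inhibits thioredoxin. TXNIP had 4602 reads (141 CPM) in the combination, 4704 (135) with radiation alone, 1847 (53.5) with exercise alone and 4061 (114) in control. TXNIP was thus 2.13-fold (95% interval 2.01 to 2.25) lower with exercise alone than in control, a difference that the combination did not show over radiation, at a log2 ratio of 0.05. Radiation alone, at 135 CPM, differed little from control, at 114. The radiation call of TXNIP in the fit therefore leans on the low exercise library, while the fit assumes no interaction. In the edgeR fit 0 of the 68 passed for exercise, and 3 were higher and 2 lower at an unadjusted p under 0.05, against 2.5% and 3.1% of all genes.

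Reads of genes used as markers of other cell types differed between irradiated and unirradiated tumors along with the members above. Such reads may come from A549 itself or from the mouse host where they match a human gene. These sources cannot be told apart here, so the values are not a measure of host cell numbers. The summed level of 14 macrophage and neutrophil genes was 500.5, 436, 369 and 378 CPM in the combination, radiation, exercise and control libraries. Of the 7 with enough reads to compare, 3 passed 1.5-fold upward in both radiation pairs (LYZ, CD68 and CD14), against 3.18% of all genes. None of the 7 passed downward, against 2.28%. CSF1R, ADGRE1 and ITGAM had log2 ratios of −0.22, −0.33 and −0.36 for radiation over control, and ITGAM had −0.47 for the combination over exercise. PTPRC had 15, 8, 14 and 7 reads, and S100A8 had 0 in each library. Skeletal muscle markers (10 genes) summed to 50.4, 39.5, 5.73 and 4.40 CPM in that order of libraries, with MYH1 and MYH2 at 0 reads in control. Fibroblast markers (12 genes) summed to 208, 253, 379 and 372 CPM. For radiation over control, 9 of the 10 compared had log2 ratios below 0 and FAP had 0.88. For the combination over exercise all 10 were below 0. The 6 endothelial markers summed to 7.15, 11.1, 16.1 and 20.4 CPM, and only 1, PECAM1, had enough reads to compare. Any part of host cells in the differences of DUOX2, NOX1, NOX4, GSTA1, GSTA2, PRDX4, GPX1 and GPX8 was not tested.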

How the data were processed

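PolyA-selected stranded libraries were sequenced in pairs by the authors, who trimmed the reads (cutadapt, per the submitters' processing notes), aligned them to GRCh38 with Bowtie2 2.3.4.1 and counted them per gene with featureCounts 1.6.0. Strand and mouse-read handling: not given in the sources used here. Deposited by the authors were whole-number read counts, not normalized. The deposited FPKM values imply a length within 2% of the whole gene span for 83.78% of 9413 genes checked. A gene enclosing another had at least its count in all libraries for 99.26% of 1075 pairs, and for 98.97% of 195 pairs on opposite strands, so reads were not separated by strand or by exon.

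Counts were scaled by TMM (edgeR 4.0.16, R 4.3.3). Log2 ratios had 0.5 counts added and were kept for genes averaging 20 counts or more. The members and lists were chosen with earlier results of these data known. Values per library were given for members at least 1.5-fold different in any of the 5 comparisons and for 19 set members. Shared transcript sequence was counted in windows of 100 bases. The steps were tested on simulated counts whose changed genes differed by more than 2-fold. Smaller ratios and an interaction of the treatments were not simulated. Python 3.11.15 with pandas 2.3.3 and scipy 1.17.1 was used for the rest. Results were recomputed with 2 or 0.1 counts added, without a minimum or with 100 counts as minimum, with size factors from total counts or median of ratios, with FPKM plus 0.1, and with near-identical copies left out and other fold thresholds. Chosen after seeing the data was the count without members that overlap another counted gene. Protein sequences were not used here.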

Additional observations from a re-analysis of the deposited data

How the results depend on the processing

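The median log2 ratio of the members was close to 0 in all 5 comparisons. For the combination over control it was 0.066, and −0.0092 with total-count scaling or with FPKM. For radiation over control it was −0.010, and 0.011 without members that overlap another counted gene. For exercise over control it was 0.0005, and −0.034 with total-count scaling or with FPKM and −0.0005 with a minimum of 100. For the other 2 comparisons it stayed above 0 under all alternatives run. Single-gene ratios of at least 2-fold kept their sign under the alternative scalings, priors and minimums. The counts below are those that moved by over 1.5 times or to or from 0, and no minimum means more than 3 reads in either library. The counts of members at least 2-fold higher moved as follows. For the combination over control 2 became 4 with no minimum, 6 at 1.5-fold and 1 without near-identical copies (GSTA and GSTM genes). For radiation over control 1 became 3 at 1.5-fold. For exercise over control 1 became 2 with no minimum and 0 with a minimum of 100 or with FPKM. For the combination over radiation 0 became 1 with no minimum. For the combination over exercise 4 became 2 without near-identical copies. Counts of members at least 2-fold lower moved to 1 with no minimum for radiation and for exercise over control, to 1 at 1.5-fold for the combination over radiation, and to 0 with a minimum of 100 or FPKM for the combination over exercise. In both radiation pairs, 2 members higher became 1 without near-identical copies, 7 at a log2 ratio of 0.32 and 7 in the edgeR fit, and 0 lower became 3 at that ratio and 2 in the edgeR fit. In both exercise pairs, 0 higher became 1 with no minimum. The loss of NOX4 with FPKM follows from the 0.1 added, since its deposited FPKM lie between 0.002 and 0.008. Of 265 gene ratios, 58 moved beyond counting error with total-count scaling and 67 with FPKM, and none with the other scalings and priors. No paired analysis was possible because each group had only 1 library. With 1 library a group, differences between tumors cannot be told apart from treatment, and genes with few reads such as NOX4 and NOX5 are the least precise.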
